A study of Mus musculus with 12 samples.

Results

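The genes described here make and sense prostaglandins and leukotrienes. They were named one by one for their roles in the pathway, with earlier results of these data known, as 10 of the 48795 genes in the count files. Ptgs1 and Ptgs2 encode the cyclooxygenases. Ptges, Tbxas1 and Hpgds encode synthases that act after them. Alox5, Alox5ap, Ltc4s and Lta4h form the leukotriene branch, and Ptger4 encodes a prostaglandin E2 receptor. All 10 were among the 11228 genes that were tested.

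RNA was sequenced from mouse bone marrow-derived macrophages (BMDMs), which are grown in culture from marrow cells with M-CSF, in 12 libraries with 2 for each of 6 groups. Wild-type (WT) cells, labelled C57BL/6, and cells labelled Acod1-/- (C57BL/6NJ-Acod1em1(IMPC)J/J) each received PBS as vehicle, urban particulate matter (PM, SRM 1649a), or 4-octyl itaconate (OI) followed by PM. PM was given at 20 μg/cm² for 24 hours, and OI, an ester of itaconate that enters cells, at 0.25 mM from 2 hours before PM. Acod1 encodes the enzyme that makes itaconate. The design asks what PM does to these genes, whether OI changes their level in PM-treated cells, and whether the genotype matters. No library received OI without PM, so the OI comparison is always within PM-treated cells. The study's methods name male C57BL/6NJ mice as the WT source, which differs from the label, and a difference between genotypes cannot be told apart from one between substrains. Nothing says whether the libraries of a group came from separate mice or cultures, so p-values measure only the spread between these libraries, which may be technical.

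Eicosanoids are short-lived lipid signals made from arachidonic acid, which phospholipases release from membranes. The cyclooxygenases convert it to prostaglandin H2, and terminal synthases turn that into prostaglandin E2, prostaglandin D2 or thromboxane A2. In the other branch, 5-lipoxygenase (Alox5) works with its partner FLAP (Alox5ap) to make leukotriene A4. Lta4h converts this to leukotriene B4, an attractant of neutrophils, and Ltc4s converts it to leukotriene C4, the first of the cysteinyl leukotrienes. Macrophages are known as producers of both families, with Ptgs1 made constitutively and Ptgs2 induced by inflammatory stimuli.

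The promoters of the 2 genes that PM raised most and of the constitutive cyclooxygenase are shown because Ptgs2 and Ptges moved together while Ptgs1 moved far less. Each is the 250 bases before the RefSeq start of the gene on GRCm38.p6, written 5′ to 3′ on the strand of the gene, with the matches named in the next paragraph in capitals. They lie at chr1:150099781-150100030 on the plus strand for Ptgs2, at chr2:30903298-30903547 on the minus strand for Ptges and at chr2:36230176-36230425 on the plus strand for Ptgs1.
Ptgs2: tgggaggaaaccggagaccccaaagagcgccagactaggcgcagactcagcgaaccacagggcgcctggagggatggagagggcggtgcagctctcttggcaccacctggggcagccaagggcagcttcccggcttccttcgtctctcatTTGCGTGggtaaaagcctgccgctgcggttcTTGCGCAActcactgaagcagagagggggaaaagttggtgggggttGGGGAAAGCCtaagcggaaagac
Ptges: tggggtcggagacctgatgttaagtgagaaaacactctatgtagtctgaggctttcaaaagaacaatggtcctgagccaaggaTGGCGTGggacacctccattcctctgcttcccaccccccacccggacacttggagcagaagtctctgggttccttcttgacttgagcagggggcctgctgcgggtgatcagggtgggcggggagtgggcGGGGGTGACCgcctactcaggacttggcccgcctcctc
Ptgs1: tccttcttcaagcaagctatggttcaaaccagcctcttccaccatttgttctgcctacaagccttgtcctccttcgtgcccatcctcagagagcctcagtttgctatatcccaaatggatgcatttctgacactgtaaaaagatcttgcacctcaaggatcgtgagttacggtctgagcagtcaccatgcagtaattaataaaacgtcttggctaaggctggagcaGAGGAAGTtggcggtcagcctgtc

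A promoter was found for 9 of the 10 genes in the RefSeq table, and 8 motifs were searched on both strands in 32851 promoters of the same length. The Ptgs2 window held an aryl hydrocarbon receptor (AhR) element, TNGCGTG, whose first base was 100 bases before the start. It also held a C/EBP match, TTGCNNAA, at 69 bases, which reads the same on both strands, and an NF-kB match, which is GGG and CC separated by any 5 bases, at 23 bases. The Ptges window, which lies in an intron of the longest GENCODE transcript of the gene, held an AhR element at 167 bases and an NF-kB match at 38 bases. The Ptgs1 window held only the PU.1 match GAGGAAGT, at 24 bases. Of all promoters, 4.1% held the AhR element, 9.56% the C/EBP motif, 45.8% the NF-kB motif and 2.44% the PU.1 motif. The AhR element was in the windows of Ptgs2 and Ptges and in none of the other 7. The NF-kB motif, which is loose, was also in the windows of Alox5, Lta4h and Ptger4. The Hpgds window held a C/EBP and a PU.1 match, and the Tbxas1 window an AP-1 match, TGANTCA, and a TATA box, TATAAA. By the GENCODE positions the Tbxas1 window lies within its gene, and the Hpgds and Ltc4s windows overlap theirs in part. The Ltc4s window held none, and neither the CRE TGACGTCA nor the antioxidant response element TGACNNNGC was in any of the 9 windows. AP-1 was in 6.75% of all promoters, the TATA box in 12.4%, the CRE in 1.55% and the antioxidant response element in 10.2%. These matches describe letters in a window, and binding was not measured.

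The libraries held between 33616577 and 36817898 counts. Acod1 itself reached 170 to 181 TMM-normalized CPM, that is counts scaled to a common library size, in PM-treated WT libraries and 94.1 to 108 CPM in the PM-treated libraries labelled Acod1-/-. Counts per gene do not show which exons the reads came from. The macrophage markers were plain in every library, with all 8 of the listed genes tested and Csf1r, the M-CSF receptor, at 996 to 1799 CPM. Of 9 mast cell and basophil markers none was tested and 6, Fcer1a and Mcpt8 among them, had no read in any library. Of 5 platelet markers Pf4 and Ppbp were tested, Itga2b had 4 to 25 reads, Gp9 had at most 1 and Gp1bb had none in any library. All levels are on this scale, and means are given with the SD of 2 libraries. A gene passed the edgeR quasi-likelihood test at a Benjamini-Hochberg adjusted p of 0.05 or less over all 11228 genes. The WT libraries treated with OI and PM stood furthest apart: the median gap between replicates over the 10 genes was 0.29 on the log2 scale there, against 0.03 in the vehicle-treated libraries labelled Acod1-/-.

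Compared per kb of exon, the 10 genes covered a wide range. In vehicle-treated WT cells Alox5ap led at 181 ± 5.38 CPM per kb, followed by Hpgds at 45.8 ± 0.616 and Tbxas1 at 43.6 ± 0.934, whose replicates did not overlap. Lta4h at 13.7 ± 0.290 and Ptgs1 at 13.6 ± 0.296 could not be separated. Ltc4s followed at 7.16 ± 0.699, Ptger4 at 3.62 ± 0.361 and Ptges at 0.986 ± 0.0573. Alox5 at 0.322 ± 0.0694 and Ptgs2 at 0.264 ± 0.0191 were lowest, and their replicates overlapped. The order was the same in vehicle-treated cells labelled Acod1-/- except that Ptgs2, at 0.494 ± 0.0650, lay above Alox5, at 0.144 ± 0.00316. On this scale the transcript of the partner protein FLAP was the highest of the 10. That of the lipoxygenase it serves was among the lowest. The divisor was the merged length of all annotated exons, which need not be the length of the transcript present. It was 1420 bases for Alox5ap, 6425 for Hpgds and 9094 for Tbxas1. In CPM not divided by length, Tbxas1 (397) and Hpgds (294) lay above Alox5ap (257) in vehicle-treated WT cells. The Alox5ap level per kb was 477 to 677 times that of Alox5 in vehicle-treated WT libraries and 2320 to 4495 times in WT libraries given OI and PM.

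**Figure D1:**
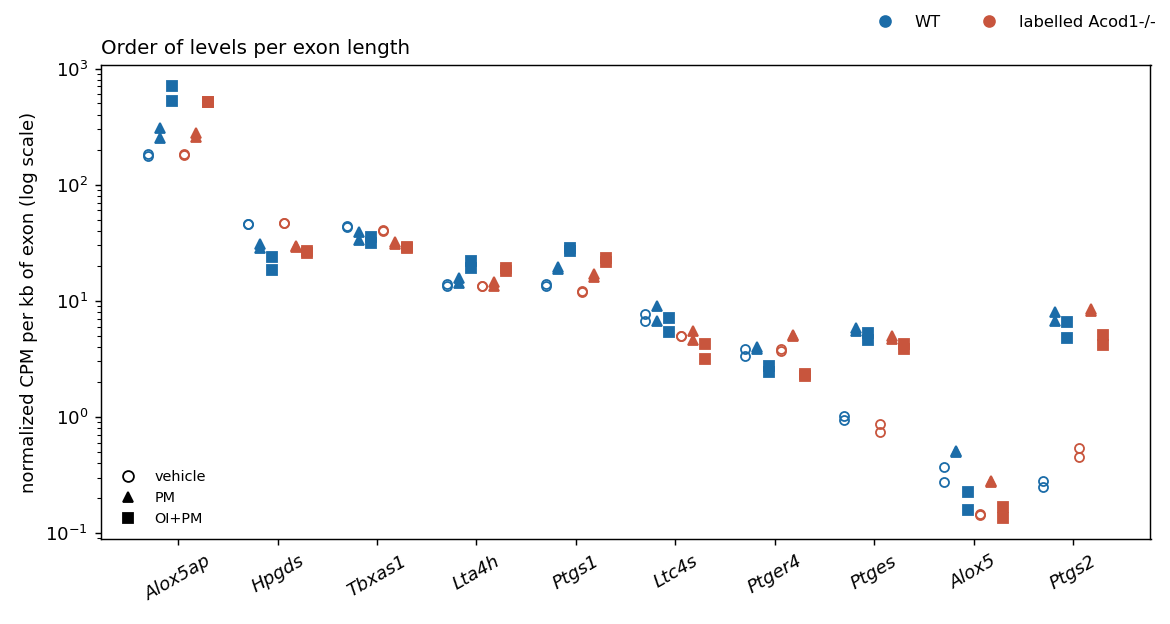
Level of each of the 10 genes in TMM-normalized CPM per kb of exon, on a log axis, ordered by the mean of the vehicle-treated WT libraries. Every point is 1 library, colour gives the genotype and shape the treatment. By means of 2 libraries, Ptgs2 moves from the lowest place with vehicle in WT cells to the 7th after PM, while Alox5ap stays highest. The WT libraries of Ptgs2 overlap those of Alox5 with vehicle and those of Ltc4s after PM.

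PM raised 5 of the 10 genes in WT cells and lowered 2, where 24.8% of all genes passed in either direction. In cells labelled Acod1-/- it raised 6 and lowered 2, where 23.9% of all genes passed. Alox5 is 1 of the 5 in WT cells. Both PM-treated WT libraries but only 1 vehicle-treated one brought it past the filter, so a rise was partly built into its selection. The median log2 fold change of the 10 was 0.31 in WT cells and 0.44 in cells labelled Acod1-/-, against 0.01 and -0.00024 over all genes. For OI the medians were -0.26 and -0.22, against 0.02 and -0.00056. Because the 10 were chosen with earlier results of these data known, these medians describe the list and do not test it. The changes past 2-fold were those of Ptgs2 and Ptges in both genotypes, where 4.15% and 4.5% of all genes passed and changed that far. Adding OI to PM raised 3 genes and lowered 3 in each genotype, where 43.9% of all genes passed in WT cells and 34.6% in cells labelled Acod1-/-. The genes past 2-fold here were Alox5ap and Alox5 in WT cells and Ptger4 in cells labelled Acod1-/-, where 10.8% and 9.83% of all genes passed and changed that far. Alox5 is counted here although a lower OI level was partly built into its selection, since only vehicle-treated and PM-treated WT libraries brought it past the filter. Between OI with PM and vehicle, 9 of the 10 passed in WT cells and 8 in cells labelled Acod1-/-, where 65.5% and 49.4% of all genes did. In WT cells a correction for gene length lost Tbxas1 (adjusted p = 0.3975) and gained Ltc4s (adjusted p = 0.00108). Alox5 was lost there in 4 of 13 alternatives, DESeq2 among them (adjusted p = 0.0501). In cells labelled Acod1-/-, Ltc4s was gained in 5 of 14.

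**Figure D2:**
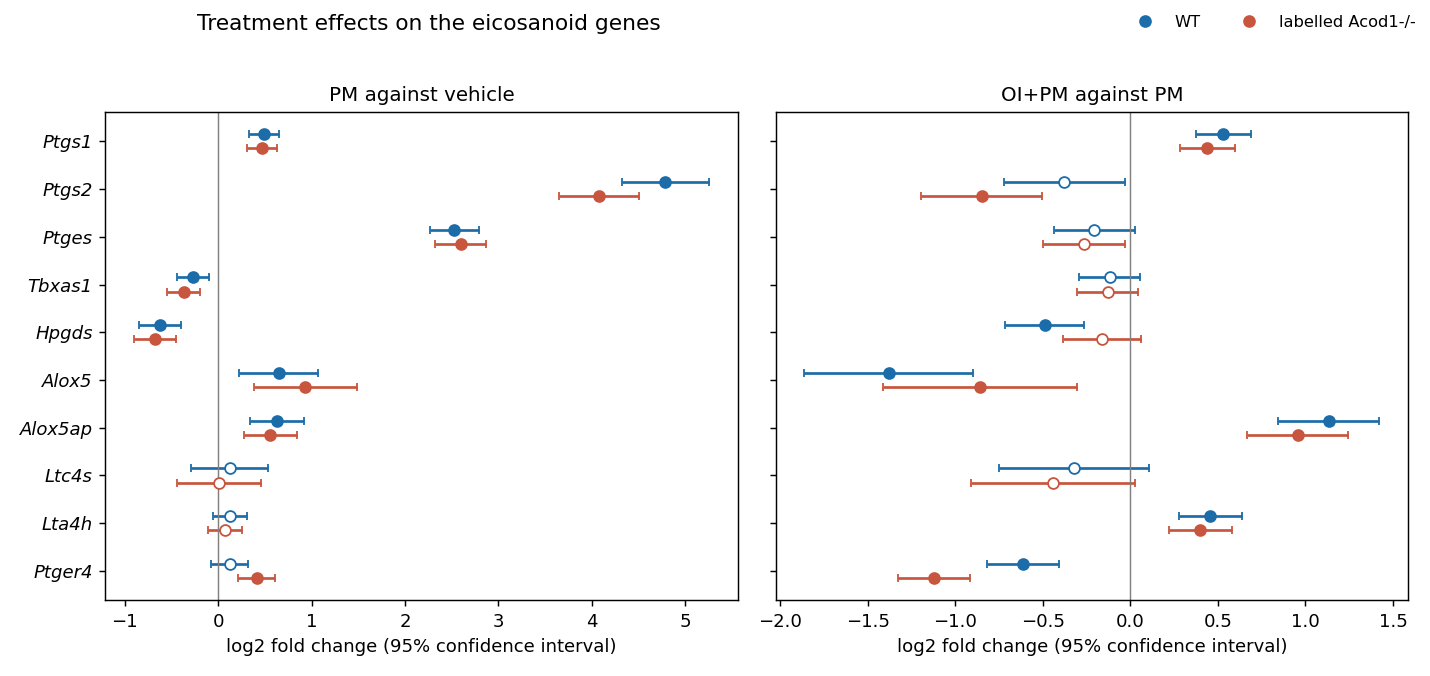
Log2 fold change of each gene with its 95% confidence interval from the edgeR fit, for PM against vehicle (left) and OI followed by PM against PM (right). Filled points passed the test at an adjusted p of 0.05 and open points did not; the axes of the panels differ in range.

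Ptgs2, the inducible cyclooxygenase known as COX-2 (ENSMUSG00000032487.8, chromosome 1, 150100031 to 150108227, plus strand), was nearly silent without PM. Its level was 1.15 and 1.27 CPM in the vehicle-treated WT libraries, 36.3 and 30.8 after PM, and 21.8 and 29.9 after OI and PM. With the Acod1-/- label it was 2.05 and 2.47, then 39.2 and 37.2, then 19.1 and 23.4. The vehicle and PM groups lay far apart in both genotypes, and the OI-treated libraries fell between them. PM raised Ptgs2 27.6-fold in WT cells, a log2 value of 4.79 (SE 0.209, adjusted p = 3.78e-07). In cells labelled Acod1-/- the value was 4.08 (SE 0.192, adjusted p = 4.34e-07), or 16.9-fold. By log2 fold change Ptgs2 ranked 13th of 11228 genes in WT cells and 26th in cells labelled Acod1-/-.

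OI lowered Ptgs2 in cells labelled Acod1-/-, the log2 value being -0.85 (SE 0.155, adjusted p = 0.00176). In WT cells the value was -0.38 (SE 0.154, adjusted p = 0.0719), which missed the threshold. Leaving out the second WT library given OI and PM gave -0.62 (adjusted p = 0.00363), and leaving out the first gave -0.16 (adjusted p = 0.294), so this call depended on which library was kept. Ptgs2 also passed in WT cells with total count scaling and with a correction for gene length. It passed too with a replicate block once the PM-treated libraries labelled Acod1-/- had their numbers exchanged (-0.39, adjusted p = 0.0333). With the numbers as labelled it did not. OI did not return Ptgs2 to the vehicle level: after OI and PM it was still 21.3-fold above vehicle in WT cells (adjusted p = 7.98e-08) and 9.37-fold above it in cells labelled Acod1-/- (adjusted p = 4.34e-07).

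Ptgs1, the constitutive cyclooxygenase COX-1 (ENSMUSG00000047250.13, chromosome 2, 36230426 to 36252272, plus strand), rose by smaller steps at each treatment. In WT cells it measured 52.1 and 53.7 CPM with vehicle, 76.5 and 72.4 with PM, and 104 and 111 with OI and PM. The libraries labelled Acod1-/- showed the same staircase at a lower height, from 45.8 and 46.8 to 65.9 and 62.3 and then 90.9 and 83.0. No group overlapped the next within a genotype. The PM effect was 0.49 (SE 0.0706, adjusted p = 0.000784) in WT cells and 0.47 (SE 0.0710, adjusted p = 0.000983) in cells labelled Acod1-/-. The further OI effect was 0.53 (SE 0.0702, adjusted p = 0.000186) and 0.44 (SE 0.0704, adjusted p = 0.000770). These 4 calls held under all 14 alternatives at the same threshold.

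The balance between the cyclooxygenases moved accordingly. Per kb of exon, the Ptgs1 level was 49.8 to 53.4 times that of Ptgs2 in vehicle-treated WT libraries and 22.4 to 26.4 times in the vehicle-treated libraries labelled Acod1-/-. After PM it was 2.48 to 2.78 times in WT cells and 1.98 to 1.99 times in cells labelled Acod1-/-. With OI before PM the ratio was 4.36 to 5.64 in WT cells and 4.19 to 5.62 in the other genotype. Ptgs1 thus stayed the more abundant transcript of the pair in all 12 libraries.

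**Figure D3:**
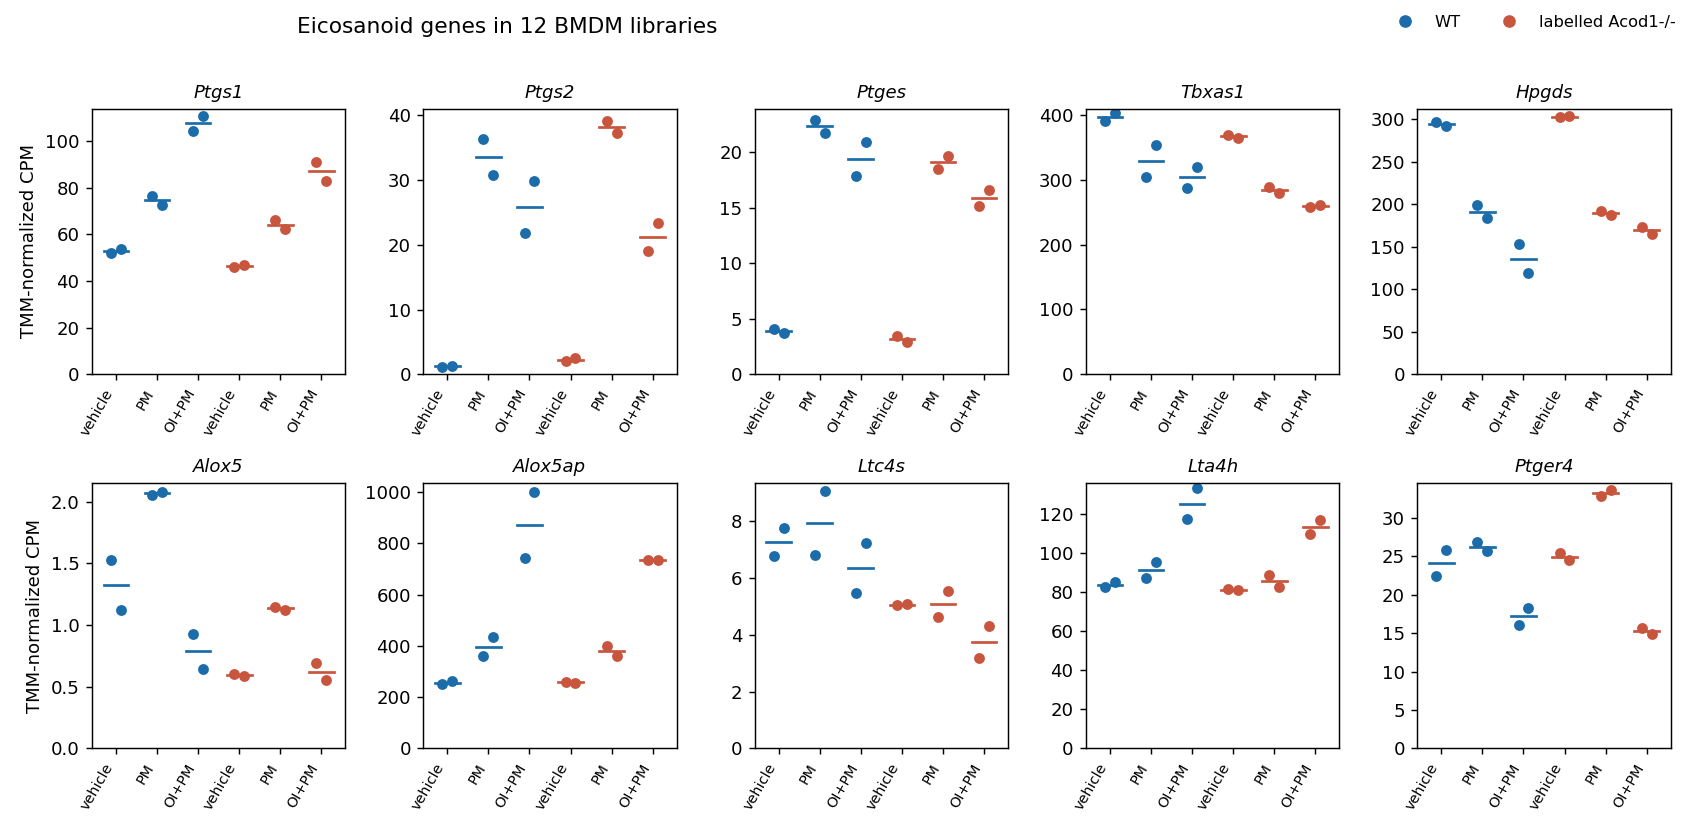
TMM-normalized CPM of the 10 genes in each of the 12 libraries, with points for single libraries, short lines for the mean of 2, and every axis starting at 0. Ptgs2 and Ptges rise sharply after PM, Ptgs1 and Alox5ap rise further with OI, Hpgds and Tbxas1 decline, and Ptger4 falls below its vehicle level with OI.

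Ptges, which encodes the inducible microsomal prostaglandin E synthase that acts after Ptgs2 (ENSMUSG00000050737.13, chromosome 2, 30889471 to 30929863, minus strand), was the other gene past 2-fold after PM. Its WT levels were 4.04 and 3.72 CPM with vehicle, 22.9 and 21.8 with PM, and 17.9 and 20.9 with OI and PM. The libraries labelled Acod1-/- had 3.42 and 2.89, then 18.5 and 19.7, then 15.1 and 16.6. PM-treated and vehicle-treated libraries were widely separated, and OI-treated ones stayed close to PM. The PM effect was 2.53 (SE 0.117, adjusted p = 4.77e-07, 5.77-fold) in WT cells and 2.60 (SE 0.121, adjusted p = 4.26e-07, 6.05-fold) in cells labelled Acod1-/-. The OI effect was -0.20 (95% CI -0.44 to 0.03, adjusted p = 0.133) in WT cells and -0.27 (95% CI -0.50 to -0.03, adjusted p = 0.0766) in the other genotype. Neither passed, although both passed with total count scaling and with the length correction. The value in cells labelled Acod1-/- also passed with the compared groups alone (adjusted p = 0.0156). The WT value was -0.32 (adjusted p = 0.0311) without the second library given OI and PM and -0.096 without the first.

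Hpgds, the hematopoietic prostaglandin D synthase (ENSMUSG00000029919.5, chromosome 6, 65117293 to 65144908, minus strand), went the other way. Its WT levels fell from 297 and 292 CPM with vehicle to 199 and 183 with PM, and were 153 and 119 with OI and PM. The libraries labelled Acod1-/- went from 302 and 303 to 192 and 187 and then 173 and 165. The 3 treatment groups did not overlap in either genotype, and the WT libraries with OI were the lowest of all. PM lowered Hpgds, with log2 fold changes of -0.62 in WT cells (SE 0.0994, adjusted p = 0.00155) and -0.68 in cells labelled Acod1-/- (SE 0.0994, adjusted p = 0.000828). OI lowered it further in WT cells, by a value of -0.49 (SE 0.0997, adjusted p = 0.00304), a call that was lost when only the compared groups were fitted (adjusted p = 0.0996). The value was -0.32 without the second WT library given OI and PM and -0.68 without the first, and passed in both. In cells labelled Acod1-/- the OI value was -0.16 (95% CI -0.39 to 0.06, adjusted p = 0.243). It passed when only the compared groups were fitted (adjusted p = 0.0234), the setting that ended the WT call.

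Tbxas1, the thromboxane A synthase (ENSMUSG00000029925.13, chromosome 6, 38875404 to 39084585, plus strand), declined less. It measured 391 and 403 CPM in vehicle-treated WT libraries, 305 and 354 after PM, and 288 and 319.7 after OI and PM. The libraries labelled Acod1-/- held 369 and 365, then 289 and 279, then 258 and 262. Every PM-treated library lay below every vehicle-treated one of its genotype. PM lowered it, with values of -0.27 in WT cells (SE 0.0777, adjusted p = 0.0321) and -0.37 in cells labelled Acod1-/- (SE 0.0779, adjusted p = 0.00705). The WT call was lost in 6 of 14 alternatives and the other in 4, the length correction among them in both, with values of -0.084 in WT cells (adjusted p = 0.644) and -0.21 in the other genotype (adjusted p = 0.245). Differences between replicates followed gene length with a Spearman rho of 0.595 in PM-treated WT libraries and 0.607 in WT libraries given OI and PM. Leaving out either vehicle-treated WT library (adjusted p = 0.115 and 0.152) or the first PM-treated one (0.104) ended the WT call. Leaving out the first vehicle-treated library labelled Acod1-/- (0.0501) or the second PM-treated one (0.0560) ended the other. OI gave -0.12 (adjusted p = 0.249) and -0.13 (adjusted p = 0.244). Both passed with total count scaling (-0.25 and -0.20), and the WT value passed without the first PM-treated library (-0.23, adjusted p = 0.0394). Leaving out each library in turn moved the WT value from -0.0047 to -0.23.

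These opposed shifts changed the relative levels of the synthases. Hpgds per kb was 45.1 to 48.0 times Ptges in vehicle-treated WT libraries, 5.16 to 5.30 times after PM and 3.49 to 5.22 times after OI and PM. The ratio in libraries labelled Acod1-/- was 54.1 to 64.3 with vehicle, 5.81 to 6.35 with PM and 6.08 to 7.01 with OI and PM. Tbxas1 per kb exceeded Ptges 41.9 to 46.8 times in vehicle-treated WT libraries and 5.74 to 7.03 times after PM.

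Alox5ap, which encodes the FLAP protein that presents arachidonic acid to 5-lipoxygenase (ENSMUSG00000060063.9, chromosome 5, 149264767 to 149288153, plus strand), showed the largest OI-related increase of the 10. The WT libraries held 251 and 262 CPM with vehicle, 360.0 and 435 with PM, and 745 and 999 with OI and PM. Those labelled Acod1-/- held 261 and 256, then 398 and 362, then 737 and 737. All 3 treatments were separate in both genotypes, although the WT libraries with OI differed widely from each other. PM raised it by 0.63 (SE 0.128, adjusted p = 0.00649) in WT cells and by 0.56 (SE 0.128, adjusted p = 0.0110) in cells labelled Acod1-/-. OI raised it by a further 1.13 (SE 0.129, adjusted p = 6.49e-05, 2.19-fold) and 0.95 (SE 0.129, adjusted p = 0.000234, 1.94-fold). The OI effect was 0.91 in WT cells without the second library given OI and PM and 1.33 without the first, and it passed in all 14 alternatives in each genotype. The PM call was lost without the first vehicle-treated WT library (adjusted p = 0.0600) or the second PM-treated one (0.0550). In the other genotype it was lost without either vehicle-treated library (0.0618 and 0.0738) or the first PM-treated one (0.0901).

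Alox5, the 5-lipoxygenase itself (ENSMUSG00000025701.12, chromosome 6, 116410077 to 116461178, minus strand), rested on 18 to 72 reads per library. WT levels were 1.52 and 1.12 CPM with vehicle, 2.06 and 2.08 with PM, and 0.928 and 0.643 with OI and PM. With the Acod1-/- label they were 0.601 and 0.583, then 1.15 and 1.12, then 0.691 and 0.554. It entered the tests because 3 WT libraries, 1 with vehicle and both with PM, were above 1.5 CPM, so that a lower level elsewhere was partly built into its selection. So was a rise with PM in WT cells. OI lowered Alox5 in WT cells, with a value of -1.38 (SE 0.216, adjusted p = 0.000578), and this passed in all 13 alternatives that kept the gene. In cells labelled Acod1-/- the OI value of -0.86 (SE 0.248, adjusted p = 0.0223) passed, but was lost with DESeq2 (adjusted p = 0.0586) and on leaving out any of the 4 libraries compared (0.0519 to 0.144). PM gave 0.65 (SE 0.189, adjusted p = 0.0335) in WT cells, lost in 7 of 13 alternatives. In the other genotype it gave 0.93 (SE 0.245, adjusted p = 0.0210), lost on leaving out any of the 4 libraries compared (adjusted p from 0.0751 to 0.117). In WT cells the PM call was lost without the second vehicle-treated library (adjusted p = 0.205) or either PM-treated one (0.0658 and 0.131).

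Lta4h, the leukotriene A4 hydrolase (ENSMUSG00000015889.7, chromosome 10, 93453411 to 93484875, plus strand), rose with OI in both genotypes, while its PM values missed the threshold. It measured 82.4 and 84.9 CPM in vehicle-treated WT libraries, 87.0 and 95.5 after PM, and 117 and 133 after OI and PM. The libraries labelled Acod1-/- held 81.4 and 81.0, then 89.0 and 82.6, then 109 and 117. OI-treated libraries lay above all others of their genotype. The OI effect was 0.46 (SE 0.0811, adjusted p = 0.00133) in WT cells and 0.40 (SE 0.0812, adjusted p = 0.00341) in cells labelled Acod1-/-. The WT call was lost when only the compared groups were fitted (adjusted p = 0.0760). The PM effect was 0.13 (95% CI -0.06 to 0.31, adjusted p = 0.262) and 0.08 (95% CI -0.10 to 0.26, adjusted p = 0.497).

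Ltc4s, the leukotriene C4 synthase (ENSMUSG00000020377.14, chromosome 11, 50236461 to 50238616, minus strand), passed in neither treatment comparison. Its WT levels were 6.76 and 7.76 CPM with vehicle, 6.80 and 9.05 with PM, and 5.48 and 7.24 with OI and PM, and all 3 groups overlapped. In libraries labelled Acod1-/- they were 5.03 and 5.08, then 4.62 and 5.55, then 3.19 and 4.31. The PM effect was 0.12 (95% CI -0.29 to 0.54, adjusted p = 0.625) in WT cells and 0.01 (95% CI -0.44 to 0.46, adjusted p = 0.978) in the other genotype. The OI effect was -0.32 (95% CI -0.75 to 0.11, adjusted p = 0.197) and -0.44 (95% CI -0.91 to 0.03, adjusted p = 0.139). Leaving out each library in turn moved the WT value from -0.10 to -0.53 and the other from -0.24 to -0.67, and none of these passed. In the other genotype the OI-treated libraries lay below the PM-treated ones, and the value passed with the compared groups alone (adjusted p = 0.0275). It is the shortest of the 10 genes, with 1014 bases of exon, and its OI values passed in both genotypes once library-specific trends with gene length were removed.

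Markers of other cells moved along with some of these genes. Neutrophils express the leukotriene B4 branch. Of 9 neutrophil markers 3 were tested, and the summed level of all 9 was 6.47 to 6.65 CPM in vehicle-treated WT libraries, 13.1 to 19.4 after PM and 29.5 to 61.0 after OI and PM. In libraries labelled Acod1-/- it was 6.89 to 7.35, 19.9 to 20.2 and 34.0 to 34.3. Most of the sum was S100a8, at 28.8 and 60.5 CPM in the WT libraries given OI and PM, which macrophages can also express. S100a8 rose with OI by 1.82 in WT cells and 1.33 in cells labelled Acod1-/-. The other 2 tested markers passed as lower with OI in both genotypes, and were lowest in the WT libraries given OI and PM. S100a9 was at 0.419 to 3.31 CPM over the libraries and Ngp had 1 to 89 reads. Both were tested only through a few PM-treated libraries where they were high, so that a fall with OI was partly built into their selection. Of the other 6, Ltf had 1 to 62 reads, and Ly6g, Elane, Mpo, Camp and Retnlg reached at most 1, 4, 7, 8 and 5. Platelets express Ptgs1 and Tbxas1. The summed level of the 5 platelet markers, nearly all of it Pf4, was 199 to 206.2 CPM in vehicle-treated WT libraries, 528 to 647 after PM and 599 to 978 after OI and PM. In libraries labelled Acod1-/- it was 290.5 to 297, 668 to 688 and 722 to 806. Of the 2 tested, Ppbp fell with OI (-0.996 and -0.614) and Pf4 did not pass (0.43 and 0.18). The sum of the 8 macrophage markers, mostly Lyz2, was 14278 to 14599 CPM in all vehicle-treated libraries, 23189 to 27338 after PM and 14428 to 16637 after OI and PM. Its members differed. OI lowered 6 of the 8 in each genotype, and in WT cells raised Cd68 (0.21). Fcgr1 went from 83.3 and 84.7 CPM with vehicle to 27.8 and 28.3 with OI and PM in WT libraries, below where it started, and Mertk from 91.6 and 81.4 to 41.5 and 25.9. The part of other cells in these results was not tested. In bulk RNA, a change in the share of cells that express a gene and a change in RNA per cell cannot be told apart.

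Ptger4 encodes EP4, a receptor that raises cyclic AMP when it binds prostaglandin E2 (ENSMUSG00000039942.15, chromosome 15, 5206661 to 5244187, minus strand). WT levels were 22.4 and 25.8 CPM with vehicle, 26.8 and 25.7 with PM, and 16.1 and 18.3 with OI and PM. The libraries labelled Acod1-/- held 25.5 and 24.5, then 32.9 and 33.6, then 15.7 and 14.9. The OI-treated libraries were the lowest of each genotype, and the PM-treated libraries labelled Acod1-/- were the highest of all. PM did not pass in WT cells (0.12, 95% CI -0.08 to 0.32, adjusted p = 0.320). It raised Ptger4 by 0.41 in cells labelled Acod1-/- (SE 0.0896, adjusted p = 0.00815), a call lost without the second vehicle-treated library (adjusted p = 0.0723) or the second PM-treated one (0.0523). OI lowered it, with values of -0.61 in WT cells (SE 0.0923, adjusted p = 0.000453) and -1.12 in cells labelled Acod1-/- (SE 0.0925, adjusted p = 6.50e-06). Both OI calls passed in all 14 alternatives. The gene overlaps Ttc33 on the other strand, which had 1193 to 1620 counts per library, and the handling of strand is not given in the sources used here.

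Ptger2, which encodes EP2, the other receptor through which prostaglandin E2 raises cyclic AMP, rose with OI where Ptger4 fell. Its WT levels were 14.3 and 12.7 CPM with vehicle, 26.2 and 25.6 with PM, and 68.3 and 76.1 with OI and PM. Those labelled Acod1-/- held 13.2 and 11.7, then 24.1 and 23.1, then 62.6 and 62.9. PM raised it by 0.94 and 0.93 and OI by a further 1.48 and 1.41 in WT and Acod1-/- labelled cells (adjusted p between 4.94e-07 and 5.68e-05). Per kb of exon, Ptger2 was 0.631 to 0.816 times Ptger4 in vehicle-treated WT libraries and 1.25 to 1.28 times after PM. In CPM not divided by length, the PM-treated WT libraries of the pair overlapped. In libraries labelled Acod1-/- Ptger2 per kb was 0.610 to 0.662 times Ptger4 with vehicle and still below it, at 0.878 to 0.940 times, after PM. After OI and PM it was 5.33 to 5.44 times Ptger4 in WT libraries and 5.11 to 5.41 times in those labelled Acod1-/-. The order of the pair was therefore reversed in every OI-treated library relative to the vehicle-treated ones. Ptgir, which encodes the prostacyclin receptor, another receptor of this kind, rose with PM by 1.74 and 1.81 and with OI by 0.64 and 0.82 (adjusted p at most 1.76e-05). Ptger1 and Ptger3, which encode EP1 and EP3, had at most 24 and 10 reads in any library.

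**Figure D4:**
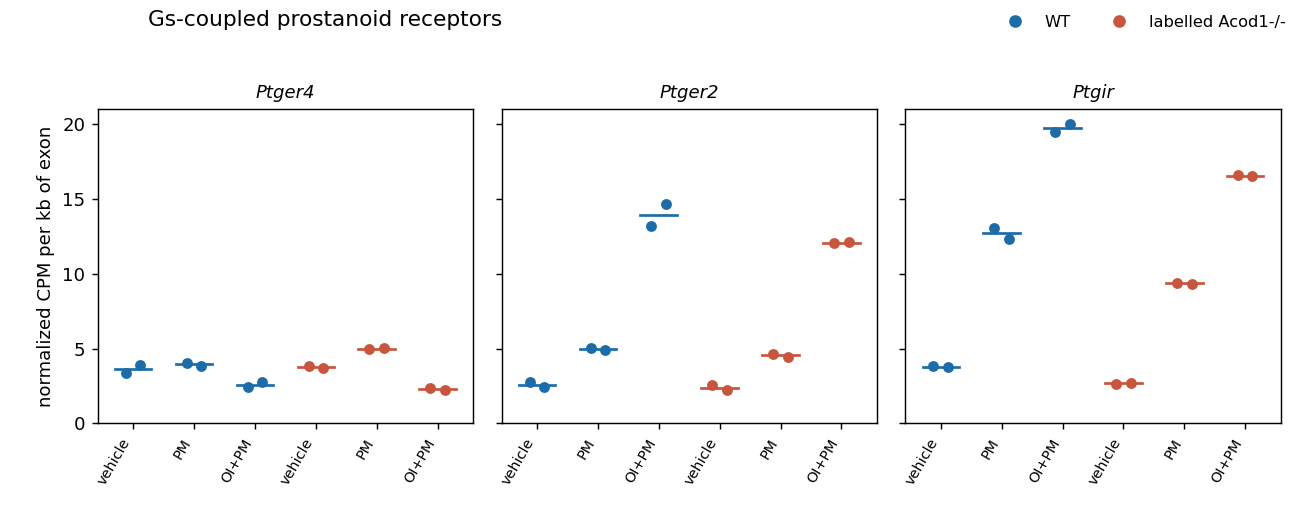
Levels of Ptger4, Ptger2 and Ptgir in TMM-normalized CPM per kb of exon, on a shared axis from 0, with points for single libraries and lines for the mean of 2. With OI and PM, Ptger2 stands 5.11 to 5.44 times above Ptger4, whereas in vehicle-treated libraries it stands below it.

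Genotype was compared within each treatment. With vehicle, 1 of the 10 genes passed, where 1.83% of all genes did. This was Alox5, which was lower in libraries labelled Acod1-/- by a log2 value of -1.15 (SE 0.235, adjusted p = 0.0415). Alox5 was tested only through WT libraries above 1.5 CPM, with 3 in WT cells and 0 with the Acod1-/- label, so a lower level in the latter was partly built into its selection. The call was lost on leaving out any of the 4 vehicle-treated libraries and with total count scaling or a looser filter. With PM none of the 10 passed in the main edgeR fit, where 2.4% of all genes did. DESeq2 called 1, Ptger4, of 434 over all genes. The replicate block and the length correction each called 2, Alox5 (adjusted p = 0.0499 and 0.0360) and Ltc4s (adjusted p = 0.0307 and 0.0352). Over all genes the block called 255 and the length correction 590, in place of 269. In the main test 5 had an unadjusted p below 0.05, where 14% of all genes did. The closest were Alox5 at -0.86 (SE 0.198, adjusted p = 0.0573) and Ptger4 at 0.34 (SE 0.0895, adjusted p = 0.0899).

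With OI and PM, Ptgs1 passed at -0.31 (SE 0.0700, adjusted p = 0.0320), where 6.96% of all genes did. This comparison depended strongly on 1 library. Without the first WT library given OI and PM, 8 of the 10 passed, where 5446 of 11216 genes did, among them Alox5ap at -0.44 (adjusted p = 0.00473), Ltc4s at -0.95 (adjusted p = 0.00597) and Hpgds at 0.51 (adjusted p = 0.000845). Without the second, or without either library labelled Acod1-/-, none of the 10 did, where 401, 95 and 101 genes did. The values of Ltc4s with vehicle, PM, and OI with PM were -0.52, -0.64 and -0.76, none of which passed, although they did in 2, 3 and 6 of 14 alternatives.

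Whether PM or OI acted differently in the genotypes was tested as an interaction. None of the 10 passed for PM or for OI in edgeR or DESeq2, and 0% of the 11228 genes did in edgeR for either, while DESeq2 called 3 genes for PM and 34 for OI. At an unadjusted p below 0.05 stood 2 of the 10 for PM and 2 for OI, where 2.43% and 6.39% of all genes did. For PM the difference in log2 effect, cells labelled Acod1-/- minus WT, was -0.71 for Ptgs2 and 0.29 for Ptger4 (edgeR adjusted p = 0.9998 for both). This smaller fold for Ptgs2 went with a vehicle level 1.86-fold that of WT cells (adjusted p = 0.167, but 0.0179 with DESeq2 and 0.00129 with the compared groups alone) and a PM level 1.14-fold that of WT cells (adjusted p = 0.647). For OI it was -0.51 for Ptger4 (edgeR adjusted p = 0.471) and 0.33 for Hpgds (edgeR adjusted p = 0.774). Without the first WT library given OI and PM, the OI interactions of Ptgs2 (-0.68, adjusted p = 0.0476), Hpgds (0.52, adjusted p = 0.0245) and Ptger4 (-0.60, adjusted p = 0.0399) passed, where 517 of 11216 genes did. Without the second, none of these 3 and 0 of all genes did.

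The wider pathway was described with 74 further genes of arachidonic acid release, synthesis, breakdown, transport and reception, of which 44 were tested. PM raised 19 and lowered 6 of the 44 in WT cells, where 24.8% of all genes passed, and raised 17 and lowered 5 in cells labelled Acod1-/-, where 23.9% did. OI raised 24 and lowered 11 in WT cells, where 43.9% of all genes passed, and raised 17 and lowered 11 in the other genotype, where 34.6% did. The median log2 fold change of the 44 was 0.25 for PM and 0.37 for OI in WT cells, against 0.01 and 0.02 over all genes. In cells labelled Acod1-/- it was 0.27 and 0.20, against -0.00024 and -0.00056. This list too was chosen with earlier results of these data known, so its counts and medians are a description. The genes described are the 18, Ptger2 and Ptgir included, that changed at least 2-fold and passed in 1 or more of these 4 comparisons.

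Among genes of substrate release, Pla2g4a, the cytosolic phospholipase A2 that frees arachidonic acid, measured 44.4 and 45.6 CPM in vehicle-treated WT libraries, 64.7 and 62.5 after PM, and 177 and 178 after OI and PM. OI raised it by 1.48 in WT cells (SE 0.0603, adjusted p = 3.85e-08) and by 1.46 in cells labelled Acod1-/- (SE 0.0606, adjusted p = 4.41e-08). Pla2g7, which encodes the plasma form of platelet-activating factor acetylhydrolase, rose with PM by 1.76 and 1.95 and with OI by 1.07 and 1.10. Lpcat2, which can synthesize platelet-activating factor, did the opposite after OI. It rose with PM by 1.90 and 2.10 and fell with OI, with values of -1.83 and -1.87, to 22.6 and 28.0 CPM in WT libraries that had started at 22.7 and 25.4. Pla2g16 fell with OI, with values of -0.98 and -1.37.

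Of the other terminal enzymes, Mgst2, a microsomal enzyme that can also make leukotriene C4, rose with PM by 2.21 and 1.88 and with OI by 1.56 and 1.26, while Ltc4s passed in neither. The WT libraries given OI and PM held 53.8 and 83.0 CPM of Mgst2, against 4.28 and 5.68 with vehicle. Akr1b8, an aldo-keto reductase, rose with PM by 0.87 and 0.81 and with OI by 1.21 and 1.19, and reads shared with its close relatives could not be checked. Cbr2, a carbonyl reductase, was tested only because vehicle-treated libraries, at 1.39 to 1.81 CPM, reached 1.5 CPM, so that lower values elsewhere were built into its selection. It measured 0.588 to 0.719 CPM after PM and had 1 or 2 reads per library after OI and PM, too few for a fold change.

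Genes of breakdown and export also split. Hpgd, the 15-hydroxyprostaglandin dehydrogenase that starts the inactivation of prostaglandin E2, fell with PM, with values of -1.25 in WT cells and -1.59 in cells labelled Acod1-/-. The OI value was -1.06 in WT cells (adjusted p = 0.000550), and in the other genotype -0.30 (adjusted p = 0.254). It was also lower in libraries labelled Acod1-/- with vehicle (-0.73, adjusted p = 0.0228) and with PM (-1.07, adjusted p = 0.00766), where 1.83% and 2.4% of all genes passed. These and the genotype calls that follow come from the main fit alone, and whether they depend on single libraries was not checked. Of the 44, 2 passed for genotype with vehicle, 4 with PM and 8 with OI and PM, where 6.96% of all genes did and the number over all genes depended on 1 library as given above. Ptgir was among them each time, with values of -0.51, -0.44 and -0.25, and Cysltr1 was higher with PM (0.52) and with OI and PM (0.72). Ptgr1, the reductase that inactivates leukotriene B4 and 15-oxo-prostaglandins, rose from 99.0 and 91.7 CPM to 246 and 284 and then to 775 and 1076 in WT libraries, with effects of 1.47 for PM and 1.80 for OI. In cells labelled Acod1-/- the effects were 1.36 and 1.45. Cbr3 rose with PM by 1.41 and 1.27 and with OI by 1.27 and 1.20.

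The transporters Abcc1 and Abcc4, which export leukotriene C4 and prostaglandins, rose with OI by 1.30 and 1.68 in WT cells and by 1.43 and 1.73 in cells labelled Acod1-/-. Ggt5, which converts leukotriene C4 to leukotriene D4, rose with OI by 1.13 and 1.14, and also entered only through libraries given PM. Cyp4f18, which hydroxylates leukotriene B4, fell with OI (-1.67 and -1.62) and did not pass for PM. Among the receptors, Cysltr1, which binds leukotriene D4, fell with OI (-1.64 and -1.44), from 48.9 and 44.4 CPM after PM to 16.2 and 13.8 CPM in WT libraries. Fpr2, which binds lipoxin A4 and formyl peptides, rose with PM by 4.63 and 4.92 and fell with OI (-3.39 and -3.12). It was tested only through libraries given PM, with 1.68 to 27.3 CPM there and 0.639 to 1.02 with vehicle, so that a rise with PM was built into its selection. Its exons overlap those of Fpr3 on the same strand, so its counts are uncertain. The leukotriene B4 receptor Ltb4r1 had at most 9 reads in any library, and the thromboxane receptor Tbxa2r at most 1.

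**Figure D5:**
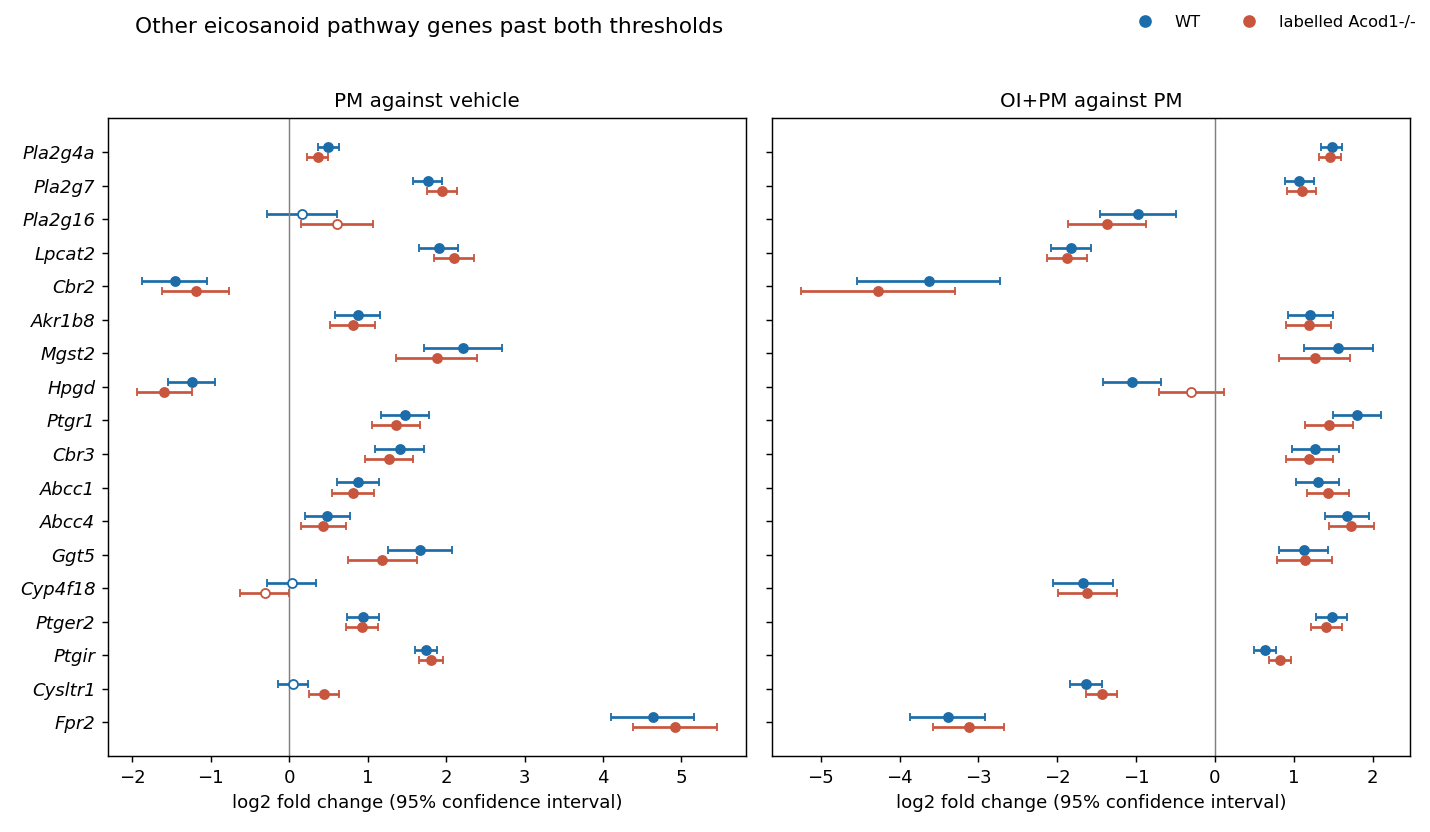
Log2 fold change with 95% confidence interval of the 18 further pathway genes that passed at 2-fold or more in at least 1 of the 4 comparisons, for PM against vehicle (left) and OI followed by PM against PM (right). Filled points passed at an adjusted p of 0.05; the Cbr2 point for OI rests on 1 or 2 reads per library; Lpcat2 and Fpr2 rise with PM and fall with OI, whereas Pla2g4a, Mgst2, Ptgr1, Ptger2 and the transporters rise with both.

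The genes whose log2 CPM followed each of the 10 most closely over the 12 libraries were found by Pearson correlation, which is given as a description because all genes share the same libraries and treatments. Ptgs2 was closest to the chemokine gene Cxcl2 (r = 0.989) and Ptges to Cxcl3 (r = 0.992), and Ptgs2 and Ptges correlated with each other at r = 0.971. Alox5ap was closest to Vapa (r = 0.997) and then Akr1b8 (r = 0.994), and correlated with Lta4h at r = 0.970 and with Ptgs1 at r = 0.951. Ptgs1 was closest to the integrin gene Itgb2 (r = 0.992), Lta4h to Coq3 (r = 0.991), Hpgds to Tfdp2 (r = 0.993) and Tbxas1 to Bcl2l1 (r = 0.980). Ptger4 was closest to Pou2f2 (r = 0.969), Ltc4s to Egln3 (r = 0.939) and Alox5 to Arpin (r = 0.937). Hpgds ran against Ptgs1 (r = -0.947) and Alox5ap (r = -0.933). Within the leukotriene branch, Alox5 correlated with Alox5ap at r = -0.317 and with Lta4h at r = -0.360.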

How the data were processed

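The authors sequenced single-end reads, aligned them by STAR against GRCm38, and used featureCounts to assign reads to genes. The deposited values are raw counts, without normalization. Per the submitters' processing notes the versions were STAR 2.5.3a, Picard 2.9.0 and FastQC 0.11.5. The handling of strand is not given in the sources used here. Of 48795 genes, 48349 were matched to a symbol, and positions and exon lengths came from GENCODE vM21 (GRCm38). Genes above 1.5 CPM in at least 2 of 12 libraries were tested. TMM-normalized counts of all libraries were fitted by the edgeR 4.0.16 quasi-likelihood method in R 4.3.3 with a mean for each of 6 groups, and p-values were adjusted over 11228 genes. SEs are those implied by the F statistic. With 2 libraries per group an SD is imprecise. Fits were tested on simulated data, and the outcome is not given here. Levels for correlation used a prior count of 2 and genes with a mean of at least 5 CPM, plus the 10 members.

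The members and gene lists were chosen with earlier results of these data known. Further pathway genes were named if they passed at 2-fold or more under PM or OI. Genes named as most like a member were those with the highest correlation. Genes named for their low counts, the markers and Acod1 fall outside these rules. Alternatives were DESeq2 1.42.0, the compared groups alone, RLE or total count scaling, other filters, a lowess length correction (span 0.3), a replicate block, both together, and leaving out each library. A block with the numbers of the PM-treated libraries labelled Acod1-/- exchanged was added after the data were seen.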

Additional observations from a re-analysis of the deposited data

How the results depend on the processing

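The calls of Ptgs1, Ptgs2, Ptges and Hpgds for PM, of Ptgs1, Alox5ap and Ptger4 for OI, and of Ptgs2 for OI in cells labelled Acod1-/- held in every alternative run that kept the gene and the threshold. Requiring 2-fold left 2 called genes of the 10 for PM in each genotype, 2 and 1 for OI in WT cells and cells labelled Acod1-/-, 5 and 3 for OI and PM against vehicle, and 0 for genotype with OI and PM. Over all 11228 genes it left 466 and 505 for PM and 1211 and 1104 for OI. It left 1808 and 1475 for OI and PM against vehicle, and 103 for genotype with OI and PM. For genotype with vehicle, where 1 passed, the compared groups alone gave 5, DESeq2 2, the length correction with replicate block 2, and total count scaling and either other filter 0. Over all genes the compared groups alone called 2316 there, DESeq2 307, the length correction with block 372 and total count scaling 187, in place of 205. The filter of 10 counts called 183 and that on all libraries 133. For genotype with PM, where 0 passed, DESeq2 gave 1, the replicate block, the length correction and both together 2 each (Alox5 and Ltc4s), and the exchanged numbers 1. Over all genes these called 434, 255, 590, 599 and 394 in place of 269. For genotype with OI and PM, where 1 passed, DESeq2 and the replicate block gave 2, the length correction with and without block 3, the exchanged numbers 4, and the compared groups alone, total count scaling and the filter of 10 counts 0. Over all genes the exchanged numbers called 1872 there, the length correction 1897 with block and 1724 without, DESeq2 1321 and the replicate block 880, in place of 782. Total count scaling called 771, the filter of 10 counts 633 and the compared groups alone 2. Leaving out 1 library gave 5 genes for PM in WT cells, 5 to 6 in cells labelled Acod1-/-, 6 to 8 and 5 for OI, 8 to 9 and 8 for OI and PM against vehicle, 0, 0 and 0 to 8 for genotype with vehicle, PM, and OI and PM, and 0 and 0 to 3 for the interactions of PM and OI. Over all genes the calls then ranged from 1183 to 3444 and 1389 to 1701 for PM (WT, Acod1-/-), from 3651 to 6764 and 2686 to 2862 for OI, from 5607 to 8321 and 3865 to 4137 for OI and PM against vehicle, from 51 to 62, 72 to 153 and 95 to 5446 for genotype, and were 0 and 0 to 517 for the interactions. The cause was not tested.

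Directions that reversed were of values near 0. Ltc4s for PM was -0.17 in WT cells with the length correction and -0.17 with the block added, and in cells labelled Acod1-/- -0.070 with total count scaling, -0.0021 with the filter on all libraries, -0.22 with the length correction and -0.23 with the block added. Lta4h for PM in cells labelled Acod1-/- was -0.00071 and Alox5 for OI and PM against vehicle -0.074 with total count scaling. Alox5ap for genotype with vehicle was -0.0031 with the compared groups alone, and Hpgds for genotype with PM 0.00029 with total count scaling. Leaving out 1 library gave -0.095 to 0.31 and -0.13 to 0.13 for Ltc4s (PM, WT and Acod1-/-), -0.023 to 0.038 and -0.20 to 0.079 for Alox5ap (genotype, vehicle and PM), -0.047 to 0.16 for Ptger4 (genotype, vehicle), -0.068 to 0.045 for Hpgds (genotype, PM) and -0.094 to 0.22 for Alox5 (OI and PM against vehicle, Acod1-/-).

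Replicate numbers were not taken as pairs: same-numbered libraries of 2 groups deviated together at r = 0.23 to 0.73 among the WT groups and at 0.25 between genotypes with OI and PM, but at -0.06 and -0.09 for vehicle with PM and PM with OI and PM in libraries labelled Acod1-/- and -0.41 between genotypes with PM. Beyond the counts above, the replicate block added Ltc4s for OI in cells labelled Acod1-/-, and also against vehicle. The block with exchanged numbers added Ptgs2 for OI in WT cells. With total count scaling the median of all genes was -0.11 for OI in WT cells in place of 0.02, and -0.20 and -0.15 for OI and PM against vehicle in place of 0.02 and -0.0056, and there were 1413 higher and 3317 lower genes for OI in WT cells in place of 2391 and 2535. With it, PM gave 1088 higher and 2027 lower in WT cells in place of 1414 and 1368. Depth limits Alox5 most, at 18 to 72 reads.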
